A study of Arabidopsis thaliana with 12 samples.

Results

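The transcripts of 10 genes that cold, drought and abscisic acid are known to raise in Arabidopsis were followed in root tips. The genes were listed by identifier, with earlier results of these data known. They were KIN1, KIN2, COR15A, COR15B, COR47, ERD10, RD29A, RD29B, LTI30 and RAB18, which is 10 of the 32833 genes measured. RNA sequencing was carried out on root tips of Col-0 wild type and of ago10-1, which carries a T-DNA insertion at AGO10 and shares that background, with 3 libraries in each of 4 groups. Seedlings were grown on plates until 6 days after germination. The BAP groups were sprayed with 1 µM BAP, a synthetic cytokinin, and harvested 2 h later. The control groups are labelled mock, where the methods describe plants left untreated. If they were not sprayed, effects of BAP and of spraying cannot be told apart in any comparison below. Roots were cut 1 to 3 mm above the tip (1 mm by the labels), so each library holds many cell types, and more cells of a type and more RNA per cell cannot be told apart. The ago10-1 groups rest on a single insertion line.

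Abscisic acid is the hormone by which plants slow water loss and tolerate drying. It is perceived by PYR/PYL receptors, which inhibit clade A PP2C phosphatases and so free SnRK2 kinases to activate ABF transcription factors, and these bind the ABA response element. Cold acts in parallel through CBF (DREB1) transcription factors, which bind the dehydration response element, also named CRT. Both routes end on genes such as these, most of which encode hydrophilic proteins that stay soluble when dried or frozen and are thought to protect membranes and enzymes.

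The libraries held 19394256 to 34899796 reads on genes (median 23987382), and no pair of replicates was a repeat of 1 library (chi-square of their difference, divided by the number of genes, 14.0 to 178, where counting error alone gives about 1 if reads are independent). The AGO10 transcript stood at 568 to 1051 normalized counts in the 6 Col-0 libraries and at 130 to 187 in the 6 ago10-1 libraries, with no overlap. A normalized count is the number of reads on a gene divided by the size factor of its library. Of the 10 type-A response regulators, which cytokinin is known to induce, 8 were positive after BAP over both genotypes with a median log2 fold change of 0.35, and limma called 2, against 1.48% of all genes tested. In either genotype alone limma called 0 of the 10 (1 with an unadjusted p under 0.05 in Col-0 and 3 in ago10-1, 0 called by edgeR and 1 by DESeq2 in each). RR3 rose after BAP over both genotypes (log2 fold change 0.43, standard error 0.09, unadjusted p = 0.00053, adjusted p = 0.362 in limma) and so did ARR9 (0.41, standard error 0.12, unadjusted p = 0.0047, adjusted p = 0.581 in limma). Markers of root meristem were detected in every library (summed 2905 to 4056 normalized counts over 5 genes), as were those of root hairs (15766 to 38927 over 5) and endodermis (5444 to 22475 over 3), while 6 green shoot markers summed to 88.5 to 671. A pair of Col-0 mock libraries carry the same heading in the deposited table, so they are named library A and library B here.

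Of the 10 genes, 8 form 4 tandem pairs of relatives. KIN1 (AT5G15960, chr5:5209717-5210826, plus strand of TAIR10) lies 892 bases before KIN2 (AT5G15970, chr5:5211719-5212743, plus strand), and both encode small hydrophilic proteins. COR15B (AT2G42530, chr2:17708593-17710433) and COR15A (AT2G42540, chr2:17710441-17712330), on the minus strand 7 bases apart, encode chloroplast stroma proteins that protect membranes during freezing. COR47 (AT1G20440, chr1:7084409-7086873) and ERD10 (AT1G20450, chr1:7087903-7089606), on the minus strand 1029 bases apart, encode acidic dehydrins. RD29B (AT5G52300, chr5:21237021-21239531) and RD29A (AT5G52310, chr5:21240717-21243644), on the plus strand 1185 bases apart, encode large hydrophilic proteins whose promoters are widely used as stress reporters. The dehydrin genes LTI30 (AT3G50970, chr3:18940643-18941611, plus strand) and RAB18 (AT5G66400, chr5:26518277-26519447, minus strand) stand alone. All coordinates are those of RefSeq for TAIR10.1.

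KIN1 and KIN2 are shown first because the results below turn on this pair and because near-identical copies can share reads. Their coding sequences from RefSeq are printed 5′ to 3′ with the bases that differ between the pair in capitals.
KIN1: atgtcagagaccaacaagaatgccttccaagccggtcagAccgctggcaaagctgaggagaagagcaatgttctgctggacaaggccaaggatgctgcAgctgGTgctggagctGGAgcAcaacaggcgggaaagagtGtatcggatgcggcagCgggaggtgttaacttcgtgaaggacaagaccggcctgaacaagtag
KIN2: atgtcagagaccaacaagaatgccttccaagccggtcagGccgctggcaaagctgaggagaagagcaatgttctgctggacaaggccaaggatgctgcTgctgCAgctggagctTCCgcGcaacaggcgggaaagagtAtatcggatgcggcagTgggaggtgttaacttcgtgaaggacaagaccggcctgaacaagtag
Both run over 201 bases and differ at 10 of them, which is 95.0% identity, with 58 bases as the longest identical run. Within single exons the genes are easier to separate, since 1 of the 682 stretches of 50 bases in KIN1 and 1 of the 603 in KIN2 occurred elsewhere in the genome. Stretches that cross a splice junction were not counted, so the sequence shared by the spliced transcripts is understated. The length of the reads is not given in the sources used here, so values of KIN1 and KIN2 carry some uncertainty of assignment. The other pairs are less alike, at 82.6% for COR15A and COR15B, 73.5% for COR47 and ERD10 and 59.8% for RD29A and RD29B.

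The 300 bases before the annotated start were read for 4 genes from the TAIR10.1 genome, since the pairs KIN1 with KIN2 and RD29A with RD29B are compared below. Capitals mark the core of the ABA response element (ACGTG) and of the dehydration response element (CCGAC), searched on both strands, so that CACGT and GTCGG are the same cores read from the other strand.
KIN1, chr5:5209417-5209716, plus strand: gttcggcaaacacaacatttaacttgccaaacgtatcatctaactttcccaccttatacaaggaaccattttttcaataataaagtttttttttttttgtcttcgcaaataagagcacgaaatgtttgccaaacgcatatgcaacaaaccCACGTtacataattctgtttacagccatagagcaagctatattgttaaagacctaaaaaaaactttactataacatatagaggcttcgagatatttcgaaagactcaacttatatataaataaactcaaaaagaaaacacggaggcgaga
KIN2, chr5:5211419-5211718, plus strand: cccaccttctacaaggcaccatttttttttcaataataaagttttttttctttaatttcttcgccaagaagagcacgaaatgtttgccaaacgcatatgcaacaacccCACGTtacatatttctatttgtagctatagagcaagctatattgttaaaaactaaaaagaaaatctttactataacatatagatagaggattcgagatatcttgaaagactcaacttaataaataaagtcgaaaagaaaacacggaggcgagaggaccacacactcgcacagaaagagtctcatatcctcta
RD29A, chr5:21240417-21240716, plus strand: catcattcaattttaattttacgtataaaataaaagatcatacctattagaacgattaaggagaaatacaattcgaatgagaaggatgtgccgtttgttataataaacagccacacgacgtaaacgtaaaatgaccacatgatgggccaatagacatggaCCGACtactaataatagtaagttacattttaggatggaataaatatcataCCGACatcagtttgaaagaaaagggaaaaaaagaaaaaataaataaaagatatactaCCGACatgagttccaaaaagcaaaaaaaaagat
RD29B, chr5:21236721-21237020, plus strand: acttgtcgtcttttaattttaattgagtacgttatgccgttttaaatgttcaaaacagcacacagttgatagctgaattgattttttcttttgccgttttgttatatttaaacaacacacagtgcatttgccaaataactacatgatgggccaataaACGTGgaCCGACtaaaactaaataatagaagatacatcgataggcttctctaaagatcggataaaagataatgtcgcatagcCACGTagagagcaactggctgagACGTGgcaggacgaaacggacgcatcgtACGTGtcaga
KIN1 and KIN2 each held 1 ABA response core and no dehydration core. RD29A held 3 dehydration cores and no ABA core, while RD29B held 4 ABA cores and 1 dehydration core. Over the other genes, RAB18 held 3 ABA cores and LTI30 held 3 dehydration cores. COR15A held 2 of each, with its pair of ABA cores overlapping as the palindrome of both strands. COR47 and ERD10 held neither. COR15B held 1 dehydration core in a window that lies almost wholly within the annotated COR15A gene. In all, 5 of 10 genes held an ABA core (25.6% of the 27443 protein-coding genes do) and 5 of 10 a dehydration core (13.9% of all). The core bound by type-B response regulators, the transcription factors of the cytokinin pathway (AGATT), was found before KIN2, COR15A, COR47 and ERD10, and 70.7% of all genes have it. The evening element (AAAATATCT) was found before RAB18 alone (2.79% of all). These matches are descriptions of letters in a fixed window.

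**Figure D1:**
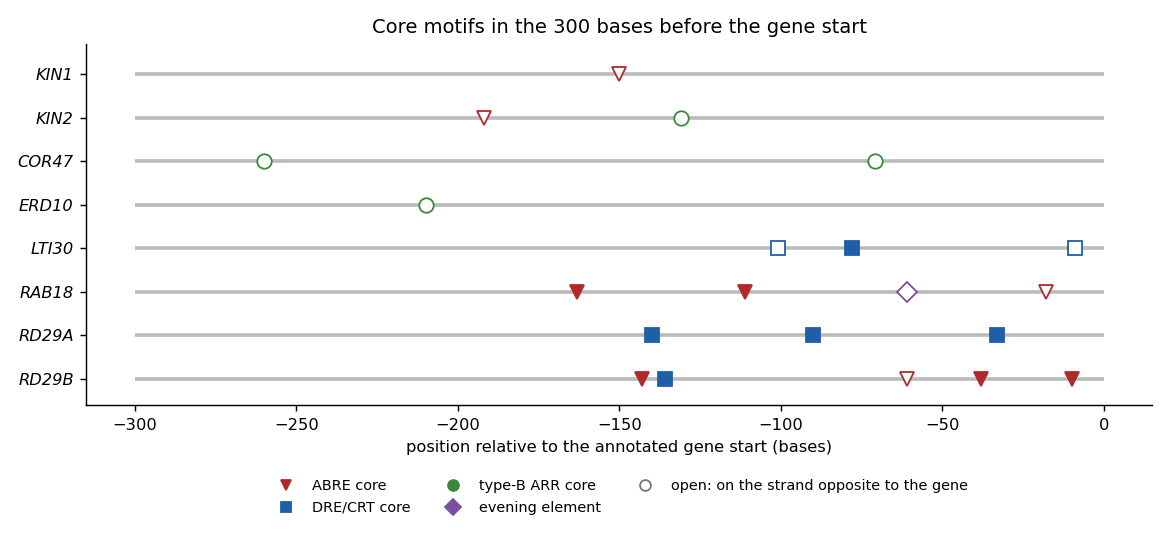
Positions of the 4 searched motifs in the 300 bases before the annotated start of the 8 genes tested (x axis in bases, 1 line per gene, filled symbols on the strand of the gene, open symbols on the other). RD29A and LTI30 carry 3 dehydration cores (squares) each, RAB18 3 and RD29B 4 ABA cores (triangles), and COR47 and ERD10 neither.

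Levels of the 10 genes spanned several orders of magnitude. Per kilobase of exon in Col-0 mock, COR47 led with 7972 ± 2746 normalized counts (SD, n = 3). It was followed by ERD10 with 2839 ± 1119 and KIN2 with 2197 ± 1468, whose ranges overlapped. LTI30 stood at 843 ± 301. RD29A (74.7 ± 47.5) and KIN1 (65.8 ± 34.0) could not be told apart within their spread, and RAB18 (11.5 ± 7.74) and RD29B (4.23 ± 6.75) were the lowest of those detected. KIN2 thus stood far above its tandem relative KIN1, and RD29A above RD29B. COR15A and COR15B were listed at 0 in all 12 libraries. Whether these zeros are true counts or a gap in the table was not tested, and only if they are counts does a limit of 3 reads allow at most 2.21 to 4.11 normalized counts per library. The next gene on the other side of COR15A, AT2G42550, was also listed at 0 throughout, as were 7680 of the 32833 genes. COR15B overlaps AT2G42520 by 468 bases and COR15A overlaps no gene. The other 8 genes averaged 10 normalized counts or more over the 12 libraries and were tested, along with 19206 genes in all that met this minimum.

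KIN1 was measured at 28.4, 84.4 and 50.9 normalized counts in Col-0 mock (replicate 1, library A, library B) and at 208, 157 and 141 in Col-0 BAP (replicates 1, 2 and 3). In ago10-1 the counts were 63.6, 71.9 and 30.2 in mock and 254, 178 and 256 after BAP. In both genotypes every BAP library lay above every mock library. The log2 fold change after BAP was 1.73 in Col-0 (standard error 0.42, unadjusted p = 0.0046, adjusted p = 1 in limma) and 2.11 in ago10-1 (standard error 0.35, unadjusted p = 0.00046, adjusted p = 0.908 in limma). Both passed the threshold used here, an unadjusted p under 0.01, and neither passed an adjusted p under 0.05. Fold changes here are on the scale of log2 of the normalized count plus 1, which understates changes of low genes.

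KIN2 stood at 640, 2823 and 1480 normalized counts in Col-0 mock and at 5794, 3459 and 2772 in Col-0 BAP. The lowest BAP library fell just short of mock library A, so the groups overlapped. In ago10-1 the values were 764, 1708 and 1809 in mock and 4196, 3298 and 5151 after BAP, with no overlap. KIN2 rose in ago10-1 by the threshold (log2 fold change 1.64, standard error 0.34, unadjusted p = 0.0015, adjusted p = 0.908 in limma). In Col-0 its log2 fold change was 1.46 (standard error 0.54, unadjusted p = 0.032, adjusted p = 1 in limma), which missed it.

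RD29A was measured at 305, 233 and 59.0 normalized counts in Col-0 mock and at 1678, 353 and 280 in Col-0 BAP. The ago10-1 libraries held 259, 137 and 60.3 in mock and 1047, 327 and 347 after BAP. Replicate 1 was the highest BAP library in both genotypes, and the groups overlapped in Col-0 but not in ago10-1. The log2 fold change was 1.76 in Col-0 (standard error 0.85, unadjusted p = 0.077, adjusted p = 1 in limma) and 1.92 in ago10-1 (standard error 0.61, unadjusted p = 0.015, adjusted p = 0.908 in limma). Its neighbour RD29B was rarely read, with 0 to 32 reads per library. It stood at 0, 26.1 and 1.47 normalized counts in Col-0 mock and at 43.8, 2.38 and 10.6 in Col-0 BAP. For ago10-1 the values were 22.02, 9.48 and 1.72 in mock and 31.5, 12.5 and 22.8 after BAP. The groups overlapped in both genotypes and neither log2 fold change passed (1.57 with a standard error of 1.47 in Col-0, 1.33 with 0.83 in ago10-1).

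Among the dehydrins, LTI30 was measured at 1003, 967 and 481 normalized counts in Col-0 mock and at 4446, 1309 and 919 in Col-0 BAP. In ago10-1 it stood at 1423, 904 and 488 in mock and at 3642, 1313 and 1883 after BAP. A single mock library reached into the BAP range in ago10-1 (replicate 1), and 2 did in Col-0. Its log2 fold change was 1.17 in Col-0 (standard error 0.60, unadjusted p = 0.093, adjusted p = 1 in limma) and 1.28 in ago10-1 (standard error 0.46, unadjusted p = 0.027, adjusted p = 0.908 in limma). RAB18 had 4 to 60 reads per library. It stood at 18.9, 15.7 and 2.95 normalized counts in Col-0 mock and at 73.9, 9.53 and 14.9 in Col-0 BAP. In ago10-1 it stood at 39.2, 17.4 and 5.17 in mock and at 67.4, 14.6 and 13.7 after BAP. In both genotypes only replicate 1 of the BAP group exceeded the mock range.

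COR47, the most abundant, was measured at 21472, 22834 and 11181 normalized counts in Col-0 mock and at 52401, 18989 and 12904 in Col-0 BAP. In ago10-1 it stood at 23494, 21361 and 15561 in mock and at 43457, 20314 and 26887 after BAP. ERD10 followed it, with 5133, 6109 and 2589 in Col-0 mock and 14096, 5561 and 3148 in Col-0 BAP. In ago10-1 it stood at 5190, 5257 and 3413 in mock and at 11238, 5647 and 5706 after BAP. Replicate 1 of the BAP group was by far the highest for both genes in both genotypes, and apart from it the groups overlapped, except for ERD10 in ago10-1. The log2 fold changes were 0.41 (standard error 0.54) for COR47 and 0.53 (0.57) for ERD10 in Col-0, and 0.53 (0.29) and 0.65 (0.30) in ago10-1, with unadjusted p-values of 0.062 or more in limma.

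**Figure D2:**
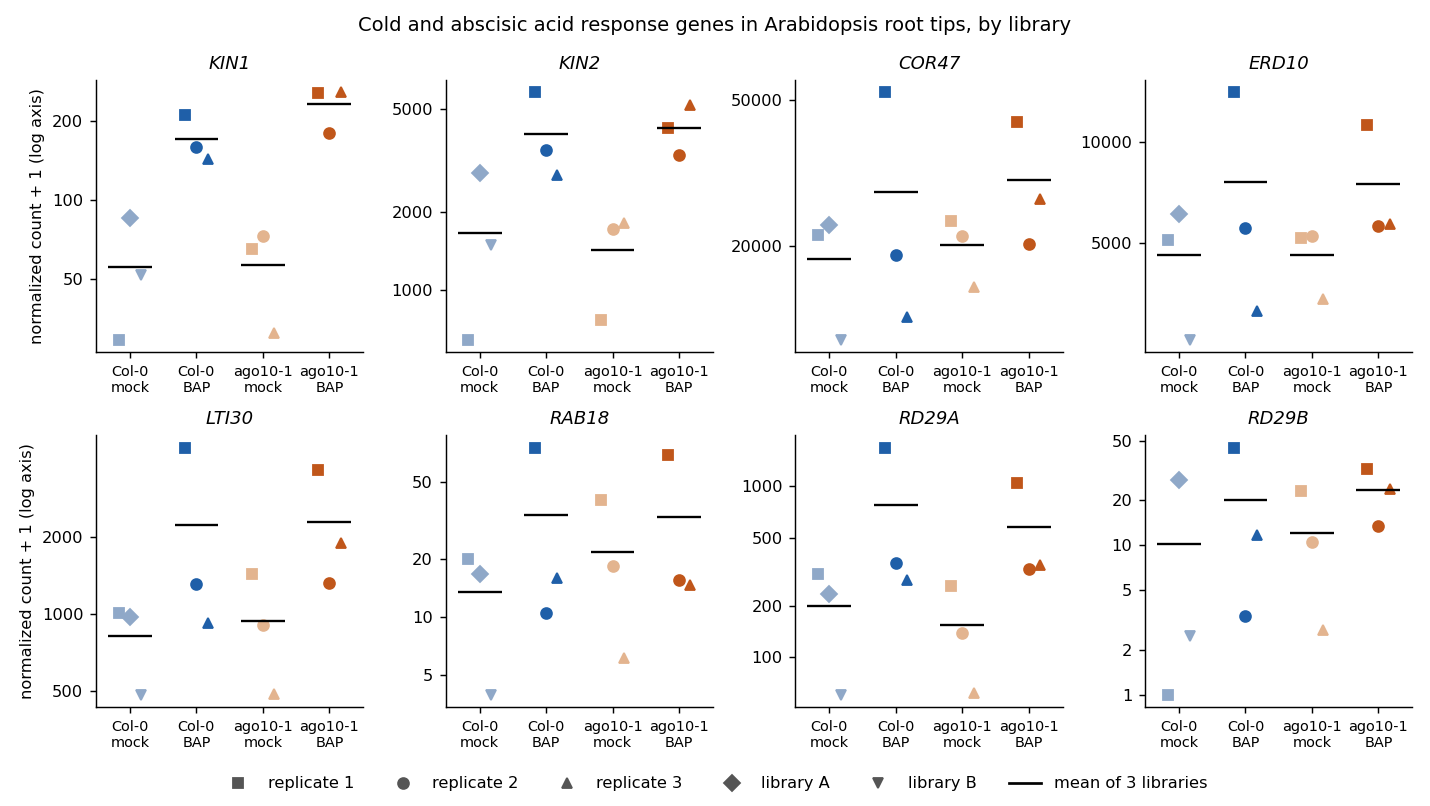
Normalized counts plus 1 (log axis, scaled to each gene) of the 8 genes tested in the 12 libraries, 1 symbol per library with replicate 1 as squares, and a bar at the mean of the 3 libraries of a group. KIN1 after BAP (141 to 256) lies above mock (28.4 to 84.4) in both genotypes, whereas COR47 overlaps between mock and BAP outside the replicate 1 libraries.

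All 8 tested genes had a positive log2 fold change after BAP in both genotypes, with a median of 1.31 in Col-0 and 1.305 in ago10-1. The median over all 19206 genes was 0.01 in both, and 51.9% and 52.1% of these genes were positive. In Col-0, limma called 1 of the 8 genes (KIN1), against 0.151% of all genes tested, and edgeR (0.13% of all genes) and DESeq2 (0.386%) each called that gene alone. In ago10-1 limma called 2 of 8 (KIN1 and KIN2), against 0.568% of all genes. Every BAP library exceeded every mock library for 1 of the 8 in Col-0 (KIN1), against 2.96% of all genes, and for 4 of the 8 in ago10-1 (KIN1, KIN2, ERD10 and RD29A), against 4.61%. The Col-0 call of KIN1 was lost without mock library B (unadjusted p = 0.015 in limma) and without BAP replicate 2 (unadjusted p = 0.016), and KIN2 was called as well without mock library A (log2 fold change 1.97). Without Col-0 BAP replicate 1 the median of the 8 genes in Col-0 was 0.56 and 6 of 8 were positive, with COR47 at -0.17, ERD10 at -0.05, RAB18 at 0.24, LTI30 at 0.50, RD29B at 0.63 and RD29A at 0.96, none of them called.

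The ago10-1 libraries of the same replicate number deviated together from their group means (r = 0.670, 0.406 and 0.427 across genes), so replicate number was also fitted as a block there. With the replicate block the count rose to 5 of 8, against 5.1% of all genes. RD29A (standard error 0.23, unadjusted p = 2.6e-05, adjusted p = 0.027 in limma) and KIN2 (standard error 0.23, unadjusted p = 9.3e-05, adjusted p = 0.043) then passed an adjusted p under 0.05 also. KIN1 (adjusted p = 0.051), LTI30 (adjusted p = 0.071) and ERD10 (adjusted p = 0.134) passed the unadjusted threshold in limma, with unadjusted p-values of 0.00014, 0.00036 and 0.0039. With replicate 1 set against the other replicates as a block, the same 5 were called in ago10-1, against 2.2% of all genes, and KIN1 alone in Col-0, against 0.349%. DESeq2 without a block called 4 of 8 in ago10-1 (KIN1, KIN2, RD29A and LTI30), against 1.52%. Without ago10-1 mock replicate 1 limma called these 4 too, and leaving out each other library kept the calls of KIN1 and KIN2.

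Within replicates, the fold of BAP over mock in ago10-1 was 3.99, 2.48 and 8.47 for KIN1 in replicates 1, 2 and 3. For KIN2 it was 5.496, 1.93 and 2.85, and for RD29A it was 4.04, 2.38 and 5.75. LTI30 gave 2.56, 1.45 and 3.86. These 4 genes were higher after BAP in 3 of 3 replicates, as were ERD10 (2.17, 1.07 and 1.67) and the rarely read RD29B (1.43, 1.32 and 13.2). COR47 (1.85, 0.951 and 1.73) and RAB18 (1.72, 0.840 and 2.65) were lower after BAP in replicate 2. In Col-0 only replicate 1 could be paired, with folds of 7.34 for KIN1, 9.05 for KIN2, 5.51 for RD29A, 4.43 for LTI30, 3.91 for RAB18, 2.75 for ERD10 and 2.44 for COR47, and none for RD29B, which was at 0 in mock. The means of the remaining Col-0 libraries differed less, at 2.21 for KIN1, 1.45 for KIN2, 2.17 for RD29A, 1.54 for LTI30, 1.31 for RAB18, 1.00 for ERD10, 0.938 for COR47 and 0.472 for RD29B. Replicate 1 therefore held the larger folds in Col-0 for each of the 7 genes with both values.

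Over both genotypes, with genotype as a term and 12 libraries, limma called KIN1 (log2 fold change 1.92, standard error 0.28, unadjusted p = 1.9e-05, adjusted p = 0.076), KIN2 (1.55, standard error 0.34, unadjusted p = 0.00067, adjusted p = 0.373) and RD29A (1.84, standard error 0.56, unadjusted p = 0.0065, adjusted p = 0.630). That is 3 of 8, against 1.48% of all genes tested. LTI30 fell just outside (1.23, standard error 0.41, unadjusted p = 0.011, adjusted p = 0.664 in limma), and COR47 (0.47), ERD10 (0.59), RD29B (1.45) and RAB18 (0.84) did not pass. By edgeR (1.56% of all genes) and by DESeq2 (2.88%) LTI30 passed too, so each called 4 of 8. With replicate 1 as a block LTI30 was called too, which made 4 of 8 against 3.36% of all genes, and KIN1 (adjusted p = 0.018) and RD29A (adjusted p = 0.036) passed an adjusted p under 0.05 in limma. The RD29A call without a block was lost without Col-0 mock library B, Col-0 BAP replicate 1, ago10-1 BAP replicate 1, ago10-1 mock replicate 2 or ago10-1 mock replicate 3 (unadjusted p = 0.012 to 0.018 in limma).

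**Figure D3:**
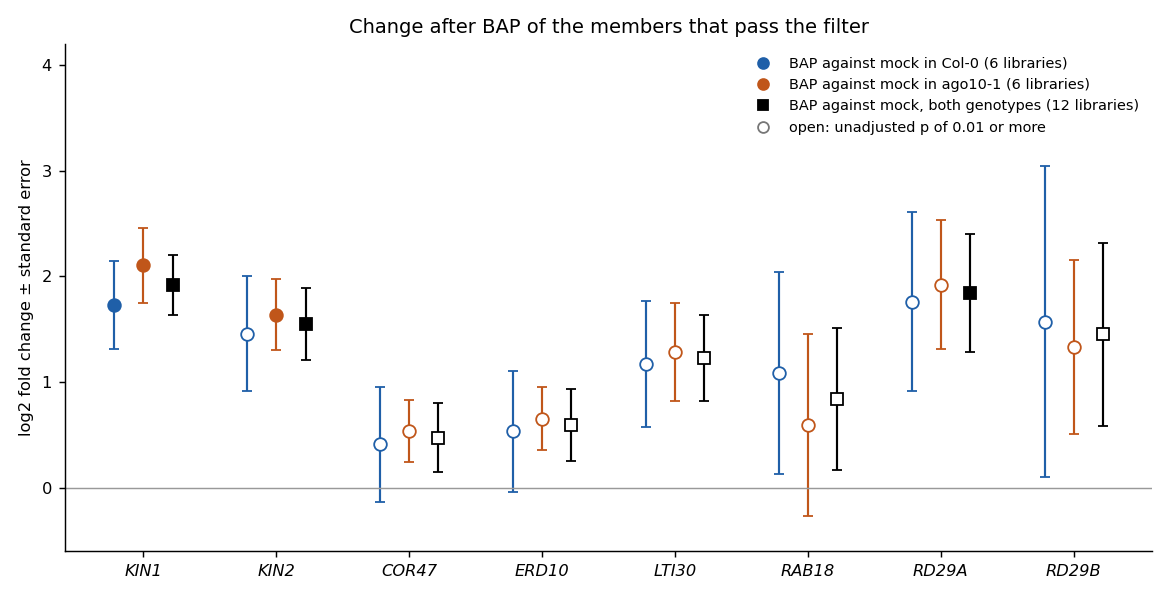
Log2 fold change after BAP (y axis, bars of 1 standard error from limma) of the 8 genes tested, in Col-0 and ago10-1 with 6 libraries each and over both genotypes with 12. Filled symbols passed an unadjusted p under 0.01, which KIN1 did in each of the 3 fits (1.73, 2.11 and 1.92), KIN2 in ago10-1 and over both genotypes, and RD29A over both genotypes.

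Whether the genotypes differed was tested in each treatment and for the response itself. In mock libraries no gene of the 8 was called between ago10-1 and Col-0, against 0.437% of all genes, and the log2 differences ran from -0.32 to 1.098 with a median of 0.10, none above 0.815 of its standard error in size. After BAP again none was called, against 0.13% of all genes, with differences from -0.16 to 0.86, a median of 0.22 and none above 1.79 standard errors. The interaction of genotype and BAP called none of the 8, against 0.0208% of all genes, with values from -0.49 to 0.38. Leaving out 1 library at a time moved the median in mock between -0.15 (without Col-0 mock library B) and 0.40 (without library A), and after BAP between -0.15 with 2 of 8 positive (without Col-0 BAP replicate 3) and 0.82 with 8 of 8 positive (without Col-0 BAP replicate 1), so neither median had a stable direction. For KIN1 the response was larger in ago10-1 by 0.38 on the log2 scale with a standard error of 0.58 (unadjusted p = 0.526 in limma), so the difference lay within the spread between libraries. In each of these 3 fits 0 of the 8 had an unadjusted p under 0.05 in limma, and edgeR and DESeq2 called 0.

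The members did not move as 1 block across libraries. Col-0 BAP replicate 1 was the highest of the 12 libraries for 7 of the 8 genes and ago10-1 BAP replicate 3 for KIN1. Col-0 mock library B was the lowest for 5 genes, and Col-0 mock replicate 1 for KIN1, KIN2 and RD29B. On the log2 scale, COR47 and ERD10 had r = 0.979 over the 12 libraries and RD29A and LTI30 r = 0.961, whereas KIN2 had r = 0.451 with COR47 and 0.232 with RAB18. These coefficients describe 12 libraries that share treatments and, in part, replicate numbers. KIN1 and KIN2 had r = 0.860 with each other.

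**Figure D4:**
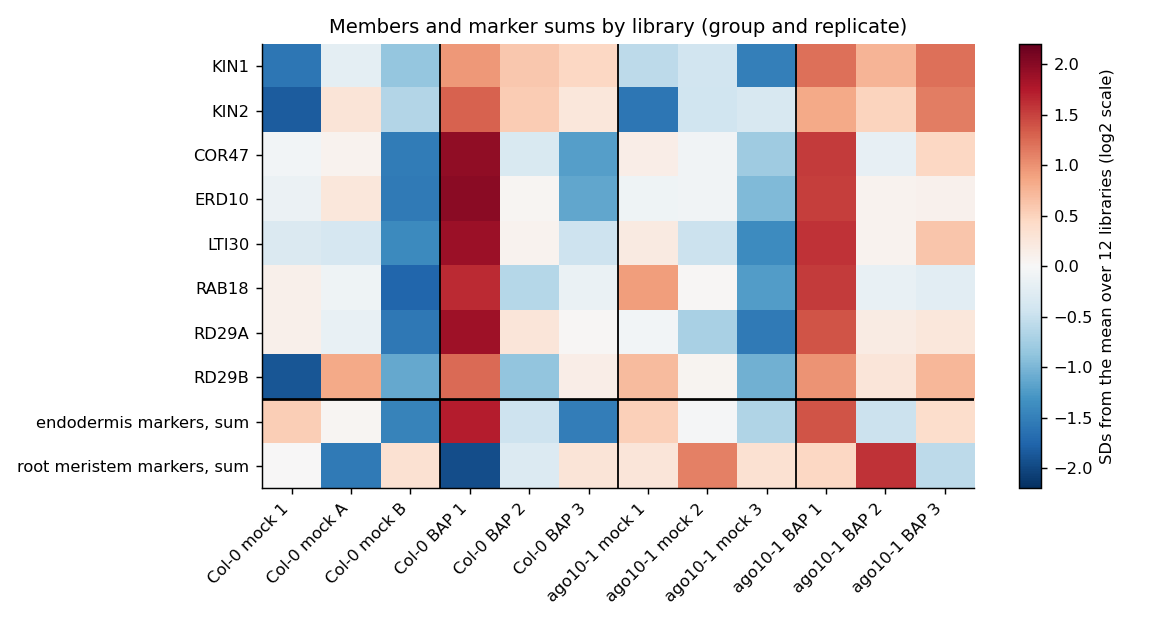
Log2 levels of the 8 genes and of the summed markers of endodermis (3 genes) and root meristem (5 genes) in the 12 libraries, each row in SDs from its own mean (red above, blue below). Col-0 BAP replicate 1 and ago10-1 BAP replicate 1 stand out for COR47, ERD10, LTI30, RAB18, RD29A and the endodermis sum, and KIN1 is above its mean in each of the 6 BAP libraries and below it in each of the 6 mock libraries.

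Ratios within a library, which no scaling between libraries can alter, separated the genes further. The ratio of COR47 to ERD10 stayed between 3.42 and 4.71 in the 12 libraries, a range of 1.38-fold, although COR47 itself ranged from 11181 to 52401 normalized counts. The ratio of KIN2 to KIN1 was looser, from 12 to 60.0 with a median of 22.3, and both ends came from ago10-1 mock (replicates 1 and 3). The ratio of RD29A to COR47 was 0.014, 0.010 and 0.0053 in Col-0 mock and 0.032, 0.019 and 0.022 in Col-0 BAP. In ago10-1 it was 0.011, 0.0064 and 0.0039 in mock and 0.024, 0.016 and 0.013 after BAP. The ratio of LTI30 to COR47 was 0.042 to 0.047 in Col-0 mock and 0.069 to 0.085 in Col-0 BAP, and 0.031 to 0.061 and 0.065 to 0.084 in ago10-1. For both ratios every BAP library lay above every mock library of its genotype, although RD29A and LTI30 themselves overlapped in Col-0. These 2 ratios were singled out after their values were seen and were not tested. The ratio of RD29A to RD29B, in the 8 libraries with at least 10 reads on the latter, ran from 8.93 to 38.3.

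**Figure D5:**
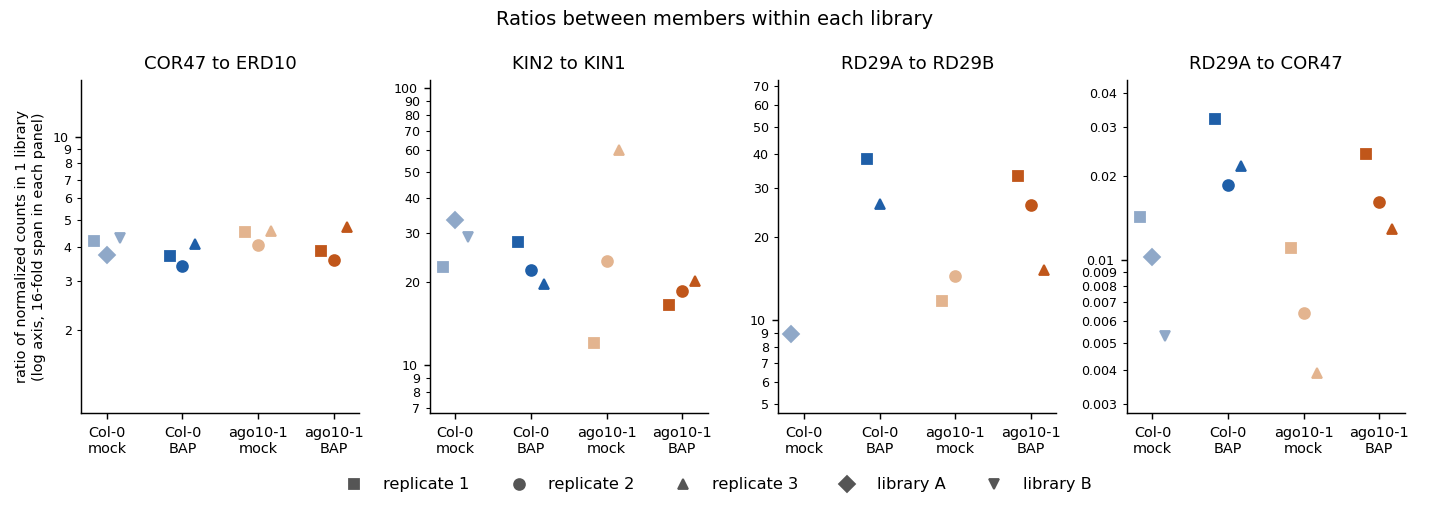
Ratio of normalized counts between 2 genes within each library (log axes that all span 16-fold, 1 symbol per library, RD29A to RD29B only in the 8 libraries with at least 10 reads on RD29B). COR47 to ERD10 varies little (3.42 to 4.71), KIN2 to KIN1 ranges from 12 to 60.0, and RD29A to COR47 is higher after BAP than in mock in both genotypes.

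The endodermis markers CASP1, CASP2 and MYB36, of which none was at 0, moved with the dehydrin genes across libraries. Their sum was 13371, 10794 and 5588.5 normalized counts in Col-0 mock and 22475, 8685 and 5444 in Col-0 BAP, and 13313, 10429 and 7955 in ago10-1 mock and 19295, 8609 and 12474 in ago10-1 BAP, so it too was highest in the BAP libraries of replicate 1. The mock and BAP ranges of this sum overlapped in both genotypes, and 0 of the 3 markers was called in any comparison (0 with an unadjusted p under 0.05 in limma, 0 called by edgeR or DESeq2). Green shoot markers also leaned upward after BAP, from 88.5 to 284 normalized counts in mock and 125 to 671 after BAP (4 of 4 tested positive, median log2 fold change 1.00 over both genotypes, 0 called by limma with 2 under an unadjusted p of 0.05, 1 called by edgeR and 1 by DESeq2). Root hair markers overlapped over both genotypes (15766 to 32613 in mock, 19182 to 38927 after BAP). In ago10-1 their sum was 16323, 15766 and 23527 in mock and 24899, 20795 and 38927 after BAP, higher in 3 of 3 replicates, and 5 of 5 markers were positive there (median log2 fold change 0.57, 0 called by limma with 2 under an unadjusted p of 0.05, 0 called by edgeR and 1 by DESeq2). The sum of the 5 meristem markers stayed within 2905 to 4056. Single markers could vary more, as WOX5 did from 8.62 in an ago10-1 mock library to 54.8 in a Col-0 BAP library. Over both genotypes 3 of the 5 were positive after BAP and 0 were called by limma, edgeR or DESeq2. Markers of the root cap (4 genes) summed to 659 to 1705 in mock and 1051 to 1871.5 after BAP. Their median log2 fold change after BAP was -0.20 in Col-0 (1 with an unadjusted p under 0.05 in limma) and 0.31 in ago10-1. In mock libraries 4 of 4 were lower in ago10-1 than in Col-0 (median -0.51). None of the 4 was called by limma, edgeR or DESeq2 in these comparisons. The part of these tissues in the results on KIN1, KIN2, RD29A, LTI30 and the other members was not tested.

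Upstream of these genes, little passed the threshold. CBF1, CBF2 and CBF3, transcription factors of the cold route, and their relative CBF4 stayed at 0 to 19.0 normalized counts and did not pass the filter on low values. Of 17 CBF and other cold regulators 11 were tested, 0 were called after BAP in either genotype or over both (0 with an unadjusted p under 0.05 in limma, 0 by edgeR or DESeq2), and the median log2 fold change over both genotypes was 0.04. The sum of the 17 was highest in replicate 1 of each group. It was 5524 and 7622 there in Col-0 mock and BAP, 6640 and 7225 in ago10-1, and 3727 to 4765 in the other libraries. LHY, which is in this list, spread from 55.2 to 1812 in Col-0 BAP and 80.6 to 1515 in ago10-1 BAP. Its mock ranges were 82.6 to 763 in Col-0 and 93.1 to 887 in ago10-1. In mock libraries the zinc finger gene ZAT10, a stress-induced repressor, was higher in ago10-1 (89.1 ± 33.01 against 33.2 ± 11.02 normalized counts, SD, n = 3 each; log2 difference 1.39, standard error 0.36, unadjusted p = 0.0050, adjusted p = 0.999 in limma). Limma called it alone of the 11, against 0.437% of all genes, with 3 of the 11 under an unadjusted p of 0.05. EdgeR and DESeq2 also called 1 each. After BAP none of the 11 was called between the genotypes by limma, edgeR or DESeq2.

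In the ABA pathway, all 8 receptor genes were tested and 7 had a positive log2 fold change after BAP over both genotypes, with a median of 0.27. None was called by limma (4 with an unadjusted p under 0.05, 0 called by edgeR, 1 by DESeq2), and PYL6 had the largest (0.77, standard error 0.26). Of 8 clade A PP2C phosphatases, which the ABA pathway is known to induce as its own brake, 3 were positive and none called (2 with an unadjusted p under 0.05, 0 called by edgeR and DESeq2). The 8 tested kinases and transcription factors of the pathway had a median of 0.12 and none was called (0 with an unadjusted p under 0.05, 0 called by edgeR and DESeq2). Of 9 tested genes of ABA synthesis and breakdown, 6 were positive over both genotypes with a median of 0.19, 2 had an unadjusted p under 0.05, and limma called 1, against 1.48% of all genes. That gene, NCED2, was higher after BAP (log2 fold change 0.79, standard error 0.24, unadjusted p = 0.0065, adjusted p = 0.630), which encodes an enzyme of the committed step. NCED2 stood at 26.3 ± 5.92 and 28.4 ± 11.3 normalized counts in Col-0 and ago10-1 mock (SD, n = 3 each). After BAP it stood at 52.7 ± 14.3 and 42.1 ± 6.36. CYP707A1, a gene of ABA breakdown in this list, also leaned upward and was not called by limma. It ranged over 423.0 to 1311.6 in Col-0 mock and 1007.1 to 1500.3 in Col-0 BAP, which overlapped. In ago10-1 it ranged over 462.5 to 1056.5 in mock and 1082.1 to 2050.2 after BAP, with no overlap, as for 4.61% of all genes tested. In ago10-1 alone limma and edgeR called 0 of the list and DESeq2 called 1. Whether ABA itself changed was not tested.

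Further genes of the same kind were read from fixed lists. Of 6 other dehydrin genes 3 were tested and none called in any comparison by limma, with ERD14 at 0.27 (standard error 0.36), HIRD11 at 0.12 (0.17) and AT4G38410 at 0.51 (0.31) over both genotypes. For that fit 0 of the 3 had an unadjusted p under 0.05 and edgeR and DESeq2 called 0. Between the genotypes in mock, AT4G38410 was at 1.27 (standard error 0.39) and DESeq2 called 1 of the 3. Of 24 further cold, dehydration and ABA targets 17 were tested, 15 of them positive over both genotypes with a median of 0.39. Limma called 1 higher and 1 lower, against 1.48% of all genes, and edgeR (1.56% of all) and DESeq2 (2.88%) each called 3. LEA14, a late embryogenesis abundant protein gene, rose (0.69, standard error 0.22, unadjusted p = 0.0076, adjusted p = 0.631 in limma). P5CS1, which encodes an enzyme of proline synthesis, fell by 0.36 on the log2 scale (standard error 0.10, unadjusted p = 0.0046, adjusted p = 0.581 in limma). Of the 12 genes nearest to the pairs and single genes on the chromosome 9 were tested, with a median log2 fold change of 0.06 over both genotypes, and none was called in any comparison by limma (1 with an unadjusted p under 0.05 over both genotypes, 0 called by edgeR, 1 by DESeq2). AT5G15980 next to KIN2 and AT5G15950 next to KIN1 were among them.

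Outside the set, of genes averaging 50 normalized counts or more, the 6 whose log2 values were most like the mean standardized pattern of the 8 over the 12 libraries were SOUL-1 (AT2G37970, r = 0.981), AT1G20225 (0.979), AT5G47860 (0.974), PAD4 (AT3G52430, 0.967), CYP72A15 (AT3G14690, 0.966) and AT1G67195 (0.964). They were picked for this likeness over libraries that share treatments and replicate numbers, so their coefficients are descriptions. SOUL-1 ranged from 99.5 to 396 normalized counts over the 12 libraries and AT1G67195, where RefSeq places the symbol MIR414, from 21.5 to 498.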

How the data were processed

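The authors used STAR for alignment, featureCounts with a TAIR10 annotation for counting and DESeq2 for normalization, with versions and strand setting not given in the sources used here. The deposited table holds their DESeq2-normalized read counts, a signal scaled by a size factor per library, for 32833 genes in 12 libraries, of which 32548 identifiers matched RefSeq. Whole reads were recovered for 100% of values (tolerance 1e-06). Those of RD29A, RD29B and RAB18 were even numbers in every library. Reads may therefore not be independent, and read numbers may overstate the molecules counted. For each pairwise comparison, limma 3.58.1 (R 4.3.3, trend, two-sided) was run on the 6 libraries concerned, using log2 of the normalized count plus a pseudocount of 1, over 19206 genes with a mean of 10 or more. Calls used an unadjusted p under 0.01, with Benjamini-Hochberg adjusted p-values over all genes tested beside them. The interaction and the fit over both genotypes used 12 libraries. The p-values measure the spread between libraries labelled as biological replicates.

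The recovered reads were tested with edgeR 4.0.16 and DESeq2 1.42.0 as alternatives. At an adjusted p under 0.05, edgeR called 0 genes for BAP in either genotype, DESeq2 4 in Col-0 and 24 in ago10-1, and limma 0 in both. Further alternatives were other pseudocounts, filters and scaling, each library left out, and blocks. Libraries of ago10-1 with the same replicate number correlated in their deviations (0.406 to 0.670, against -0.559 to 0.324 for different numbers), so the numbers were taken to pair them. Between Col-0 BAP and ago10-1 BAP the ranges overlapped (0.287 to 0.777 for the same number, -0.718 to 0.657 for different numbers). The replicate block is thus less secure for the genotype comparison after BAP. A pair of Col-0 mock columns share 1 heading, so there only replicate 1 could be blocked.

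The 10 genes and the other gene lists were chosen with earlier results of these data known. Named genes were all 10 members, the called genes of each list or else those with the smallest p, chromosomal neighbours, and the 6 genes most alike in pattern. CBF1 to CBF4, LHY and CYP707A1 are named outside this rule. Sequences were read from RefSeq TAIR10.1 with python 3.11.15 and biopython 1.88, taking 300 bases before each annotated gene start, and 458 of 458 gene coordinates compared with the study's supplement were equal. A marker fixed for the endodermis is not reported here, for a reason unrelated to its values. The limma fits were tested on simulated data.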

Additional observations from a re-analysis of the deposited data

How the results depend on the processing

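Of the counts of members called under an alternative, 94 stayed within 1.5 times the count reported and 8 did not. The 94 include every count for the genotype comparisons and the interaction, which was 0 in each setting. They also include changes over both genotypes from 3 members to 2 or 4, by which RD29A was lost or LTI30 gained. All 8 that moved belong to the BAP response in Col-0 or in ago10-1. In Col-0 the count was 0 with no filter beyond 1 read (KIN1 at an unadjusted p of 0.012 in limma), and leaving out 1 library at a time gave 0 to 2 (0 without mock library B or BAP replicate 2, 2 without mock library A). In ago10-1 it was 4 by DESeq2, 5 with the replicate block and 5 with the block of replicate 1, and 2 to 4 with 1 library left out (4 without mock replicate 1). Leaving out 1 library moved COR47 in Col-0 between -0.17 and 0.84 and ERD10 between -0.050 and 1.03, RAB18 in ago10-1 between -0.13 and 1.23, and the mock difference of KIN1 between the genotypes from -0.34 to 0.44, so the direction of these values, none of them called, turned. The median of the members in ago10-1 fell to 0.68 without mock replicate 3, with 7 of 8 positive. The cause of these changes was not tested. Over both genotypes LTI30 was called as well without Col-0 BAP replicate 3, ago10-1 mock replicate 1 or ago10-1 BAP replicate 2. No paired analysis was possible because a pair of Col-0 mock libraries carry no separate number, for the Col-0 response, the mock genotype difference, the interaction and the fit over both genotypes, beyond the block of replicate 1. With the replicate block 0 members were called between the genotypes after BAP. RD29B and RAB18 had as few as 0 and 4 reads in a library, and spread 18.4-fold and 7.76-fold between the 3 Col-0 BAP libraries.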

Other observations

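CBF2, which encodes a transcription factor of the cold route, was below the filter on low values and so was not tested. It stood at 17.1 to 19.0 normalized counts in the 3 ago10-1 mock libraries and at 6.25 to 8.99 in the 3 ago10-1 BAP libraries, which did not overlap. Of all genes tested, 4.59% were lower after BAP in ago10-1 without overlap. In Col-0 it stood at 0 to 17.4 in mock and at 0 to 2.74 after BAP. CBF3, its tandem relative, overlapped between mock and BAP in both genotypes (1.74 to 7.37 and 0 to 10.95 in Col-0, 2.45 to 19.0 and 8.99 to 16.7 in ago10-1). Both genes were singled out after their values were seen.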
